A study of Homo sapiens with 36 samples.

Results

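The genes described here are 10 transcription factors and effectors of the integrated stress response: ATF4, ATF5, CEBPB, ATF3 and DDIT3 (the gene of CHOP), with TRIB3, CHAC1, PPP1R15A, SESN2 and DDIT4. They were chosen by symbol and are 10 of the 25344 gene symbols in the table of RNA-seq counts. Both they and the gene lists below were chosen with earlier results of these data known. A count of calls set beside the share of all genes is therefore a description. Of the 10, 8 passed the filter on low counts and were tested, while CEBPB and ATF5 did not pass and are given as counts. The cells were HMC3, an immortalised line derived from human microglia, and the agent was perfluorooctane sulfonate (PFOS), a persistent fluorinated surfactant. There were 6 groups of 3 RNA-seq libraries. At 24 h the groups were vehicle, 25 µM PFOS and 50 µM PFOS, collected at the end of a 24 h exposure. The recovery groups had the same 3 treatments for 24 h and then spent another 24 h in medium without PFOS, so vehicle cells of the recovery arm had also been in culture 24 h longer. The labels call the 3 libraries of a group biological replicates. Nothing read here says whether each came from its own culture or day. In the main fit, a p-value compares groups with the spread of libraries within groups, estimated jointly over all 6 groups. That spread may be partly technical, and the 50 µM recovery group enters it in every comparison.

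In the integrated stress response, kinases that sense unfolded protein, amino acid shortage, haem shortage or double-stranded RNA phosphorylate the translation factor eIF2 on its alpha subunit. Translation in general falls, while the mRNA of the transcription factor ATF4 is translated more, and ATF4 then activates genes of amino acid supply together with further factors such as CHOP. The response carries its own brakes: TRIB3 binds and restrains ATF4 and CHOP, and the PPP1R15A protein (GADD34) directs a phosphatase to eIF2. Much of the control of ATF4 and ATF5 is exerted on translation, which counts of mRNA do not measure.

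Promoters were examined because ATF4 and CHOP act through short DNA elements. All 10 genes had at least 1 promoter entry in RefSeq on GRCh38.p14, and 18 windows of 250 bases ending just before an annotated start were read. The letters searched, on both strands, were TGATGNAA (the core of a composite C/EBP-ATF element), TGACGTCA (the cAMP response element palindrome), CCAAT followed by 9 free bases and CCAC (an endoplasmic reticulum stress element with its last base left free) and TGANTCA (an AP-1 site). Among the tested genes, 4 had a match in the window that ends at the gene's outer boundary. These 4 windows are shown 5′ to 3′ on the strand of the gene, with the matched letters in capitals.
CHAC1, chr15:40953221-40953470, plus strand: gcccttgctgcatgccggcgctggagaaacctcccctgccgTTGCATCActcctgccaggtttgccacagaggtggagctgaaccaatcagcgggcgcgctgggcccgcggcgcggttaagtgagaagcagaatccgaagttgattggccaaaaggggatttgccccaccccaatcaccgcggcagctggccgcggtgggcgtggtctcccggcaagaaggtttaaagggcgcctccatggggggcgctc
DDIT3, chr12:57520518-57520767, minus strand: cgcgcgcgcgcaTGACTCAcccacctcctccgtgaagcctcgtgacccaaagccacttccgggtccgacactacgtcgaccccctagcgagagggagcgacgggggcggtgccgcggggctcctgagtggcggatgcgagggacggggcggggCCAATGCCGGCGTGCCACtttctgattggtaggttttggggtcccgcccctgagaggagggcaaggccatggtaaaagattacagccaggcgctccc
PPP1R15A, chr19:48872171-48872420, plus strand: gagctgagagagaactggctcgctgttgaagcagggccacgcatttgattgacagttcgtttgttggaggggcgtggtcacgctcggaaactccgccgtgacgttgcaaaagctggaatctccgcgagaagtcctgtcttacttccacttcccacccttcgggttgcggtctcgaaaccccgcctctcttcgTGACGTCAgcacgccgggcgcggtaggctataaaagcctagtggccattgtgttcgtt
ATF3, chr1:212565157-212565406, plus strand: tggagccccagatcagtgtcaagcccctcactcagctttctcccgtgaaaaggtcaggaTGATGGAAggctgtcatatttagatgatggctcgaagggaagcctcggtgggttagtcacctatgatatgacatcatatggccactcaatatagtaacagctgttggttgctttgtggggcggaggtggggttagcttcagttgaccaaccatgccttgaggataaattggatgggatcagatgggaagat
In CHAC1 the composite core lay 209 to 202 bases before the start and read TTGCATCA, a match on the other strand, and in ATF3 it lay 191 to 184 bases before the start. The DDIT3 window held the stress element 97 to 80 bases and an AP-1 site 238 to 232 bases before the start. The PPP1R15A window held the palindrome 58 to 51 bases before the start. Of 35116 annotated promoter windows searched in the same way (1 chromosome was not used here), 3.14% held the composite core, 1.65% the palindrome, 0.282% the stress element and 6.57% the AP-1 letters. ATF5 had an AP-1 match 188 to 182 bases before its outer start. The windows of ATF4, TRIB3, SESN2, DDIT4 and CEBPB held none of the 4 motifs. No match overlapped another. A match describes the letters only.

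Total counts per library ranged from 582233 to 4346627. The markers of microglia were mostly absent: AIF1, CX3CR1, C1QA and C1QB had 0 counts in all 18 libraries, and SPI1, ITGAM and TMEM119 had 1 count each over all libraries. CD68 was detected in every library. Of 8 markers of fibroblasts and pericytes, 5 were detected in every library, THY1 and COL1A1 among them, while COL3A1 was at 0. Their summed level was 1138 to 1263 CPM at 50 µM and 24 h, against 2882 to 3068 CPM in vehicle at 24 h, and 525 to 1786 CPM at 50 µM recovery, against 2163 to 2987 CPM in vehicle recovery. The part of this shift in the results was not tested, and the cells are called here by the name of the line. The 50 µM recovery libraries stood apart: ribosomal protein genes took 2.94%, 7.58% and 5.03% of their counts, against 1.21% to 2.43% in the other 15 libraries. Library 2 was the farthest from the rest. Values without it are given where the tested genes at 50 µM recovery are set against vehicle recovery.

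After 24 h of PFOS, the transcripts of nearly all the tested genes were higher than in vehicle. At 50 µM, TRIB3 rose 15.2-fold, CHAC1 6.77-fold, DDIT3 5.62-fold and SESN2 4.39-fold, with smaller rises of PPP1R15A, ATF4 and DDIT4, while ATF3 did not pass the test. With edgeR's quasi-likelihood test and Benjamini-Hochberg adjustment over 9847 genes, 7 of the 8 tested genes were called higher at 50 µM (adjusted p under 0.05) and 0 lower, where 9.18% of all tested genes were called higher and 9.59% lower. At 25 µM, 5 of 8 were called higher and 0 lower, against 0.782% of all genes called higher and 0.457% lower. All 8 changes were above 0 at both doses, and their median log2 change was 1.08 at 25 µM and 1.97 at 50 µM, beside medians within 0.01 of 0 over all genes. In 7 of the 8 genes the 3 treated libraries all lay above the 3 vehicle libraries, at 25 µM and again at 50 µM, which held for 11.4% and 20.3% of all tested genes. Levels are given as CPM, counts scaled to the size of the library, so a change in the share of RNA from some cells and a change in RNA per cell cannot be told apart. The plot of CPM by library shows each gene in the 6 groups.

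**Figure D1:**
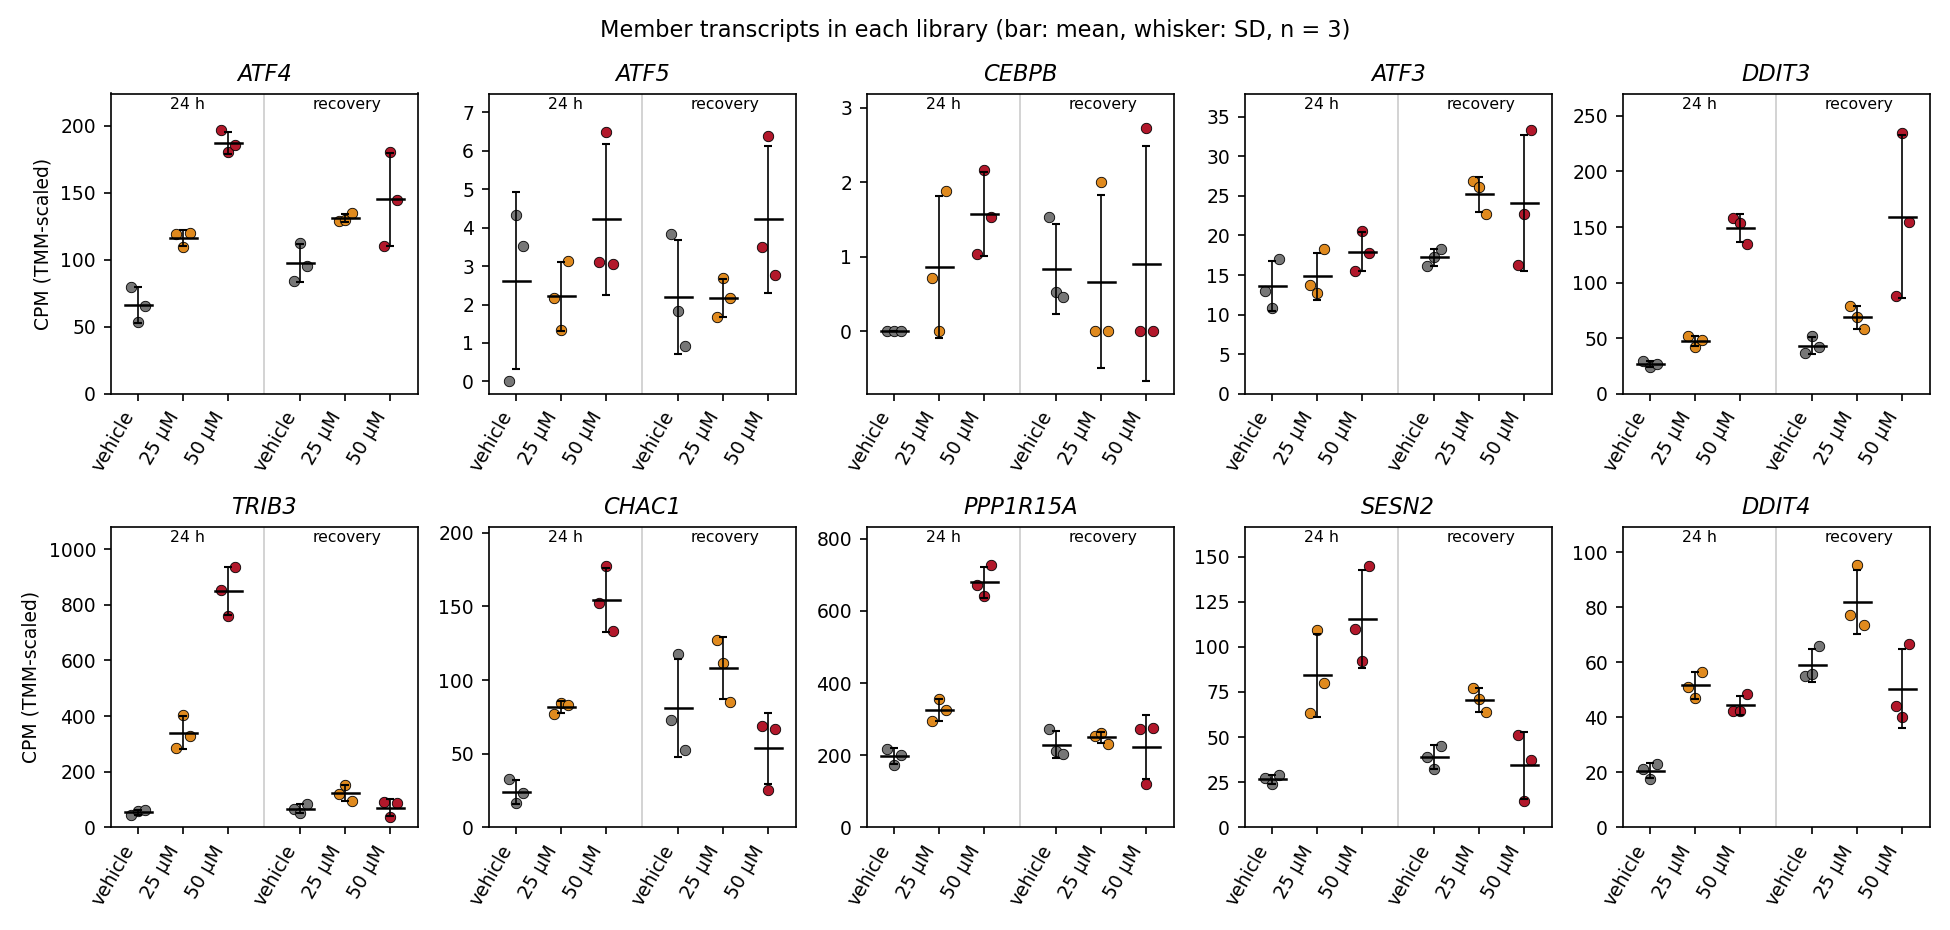
CPM of the 10 genes in each library (points), with the mean (bar) and SD (whisker, n = 3), for vehicle, 25 µM and 50 µM PFOS at 24 h and after recovery; each panel has its own linear axis. TRIB3, CHAC1, SESN2 and PPP1R15A were high at 24 h and near vehicle in the 50 µM recovery group, whereas DDIT3 was at 88.4 to 235 CPM there. CEBPB and ATF5 stayed below 7 CPM, and SD whiskers below 0 in the CEBPB panel have no physical meaning.

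ATF4, on chromosome 22 (39520559 to 39522686, GRCh38.p14), encodes the central transcription factor of the response. At 24 h it stood at 80.0, 53.3 and 65.7 CPM in vehicle, 119.5, 109.8 and 120.1 CPM at 25 µM, and 197, 181 and 186 CPM at 50 µM. The 3 groups did not overlap, and each dose step was higher than the one before. Its log2 change was 0.84 at 25 µM (SE 0.18, adjusted p = 0.0172 by edgeR) and 1.53 at 50 µM (SE 0.18, adjusted p = 2.89e-06). The 25 µM call was lost without vehicle library 2 or 3 or without any of the 25 µM libraries, with adjusted p between 0.0588 and 0.180 and log2 changes from 0.69 to 0.88. RefSeq lists 4 ATF4 pseudogenes, and how reads were divided between these copies and the gene is uncertain.

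DDIT3, on chromosome 12 (57516588 to 57520517), encodes CHOP, a factor that dimerises with C/EBP proteins and is associated with cell death under prolonged stress. At 24 h it had 29.4, 23.8 and 27.1 CPM in vehicle, 51.9, 42.4 and 48.4 CPM at 25 µM, and 158, 154 and 135 CPM at 50 µM. The vehicle and 25 µM libraries did not overlap, but the 25 µM change did not pass the test over all genes (log2 change 0.84, SE 0.26, adjusted p = 0.177 by edgeR). It did pass in the fit of the compared libraries alone (adjusted p = 0.00420), without the 50 µM recovery group (0.00501) and with no filter on low counts (0.0333). At 50 µM the log2 change was 2.49 (SE 0.25, adjusted p = 5.11e-07). DDIT3 overlaps the annotated 3' end of MARS1 (MARS in the table, 21724 counts over all libraries) by 65 bases. It also overlaps the protein-coding LOC128125814 by 2769 bases and the microRNA gene MIR616 by 97 bases, neither found among the counted symbols. The counting strand is not given, so how reads of the shared bases were assigned is uncertain.

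ATF3 (chromosome 1, 212565407 to 212620777) encodes a stress-induced factor that often represses its targets. It had 12.9, 10.8 and 17.1 CPM in vehicle, 13.7, 12.7 and 18.2 CPM at 25 µM, and 15.5, 20.5 and 17.8 CPM at 50 µM after 24 h. The groups overlapped, and neither dose passed the test, with log2 changes of 0.07 (95% interval -0.46 to 0.61) at 25 µM and 0.37 (-0.19 to 0.93, adjusted p = 0.368 by edgeR) at 50 µM. The upper bounds leave room for a rise, but the 50 µM interval ends below the log2 changes of the other tested genes in that comparison. CEBPB (chromosome 20, 50190583 to 50192690), which encodes a C/EBP partner of CHOP and ATF4, was near the limit of detection: 0 counts in the 3 vehicle libraries at 24 h, which allows up to 0.427 CPM over the group, 4 counts in all at 25 µM and 6 at 50 µM. After recovery it had 5 counts over the vehicle libraries, 9 at 25 µM, all in library 2, and 3 at 50 µM. ATF5 (chromosome 19, 49928906 to 49933935), a relative of ATF4 known for its part in the mitochondrial stress response, had 24 counts over the vehicle libraries at 24 h, 13 at 25 µM and 15 at 50 µM. Its recovery sums were 14 counts in vehicle, 15 at 25 µM and 12 at 50 µM. No fold is given for these 2 genes. CEBPB overlaps an annotated antisense RNA, CEBPB-AS1, and ATF5 shares 599 bases with NUP62 and IL4I1.

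Among the effectors, TRIB3 (chromosome 20, 380760 to 397559), a pseudokinase, moved the most. It had 44.7, 58.0 and 61.5 CPM in vehicle, 287, 404 and 328 CPM at 25 µM, and 852, 760.2 and 935 CPM at 50 µM. Every 50 µM library exceeded every 25 µM library, and every 25 µM library exceeded every vehicle library. The log2 changes were 2.60 (SE 0.25, adjusted p = 4.28e-06 by edgeR) and 3.92 (SE 0.25, adjusted p = 1.90e-09), which gave it rank 3 of 9847 genes by p at 25 µM and rank 8 at 50 µM.

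CHAC1 (chromosome 15, 40953471 to 40956512) encodes a gamma-glutamylcyclotransferase that degrades glutathione. It stood at 32.9, 16.6 and 23.0 CPM in vehicle, 77.1, 84.7 and 83.0 CPM at 25 µM, and 152, 177 and 134 CPM at 50 µM. Vehicle was low in all 3 libraries and the groups did not overlap. Its log2 changes were 1.85 (SE 0.32, adjusted p = 0.00267 by edgeR) and 2.76 (SE 0.31, adjusted p = 2.60e-06). PPP1R15A (chromosome 19, 48872421 to 48876058), the eIF2 phosphatase subunit, had 216, 173 and 199.9 CPM in vehicle, 295, 355 and 325 CPM at 25 µM, and 671, 640.2 and 727 CPM at 50 µM. Its libraries did not overlap either, yet the 25 µM change did not pass (log2 change 0.74, SE 0.21, adjusted p = 0.119 by edgeR). For PPP1R15A too it passed under the same 3 settings (adjusted p = 1.25e-04, 3.83e-04 and 0.00554, in the order given for DDIT3). The 50 µM change was 1.80 on the log2 scale (SE 0.21, adjusted p = 3.35e-06).

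Both inhibitors of the growth kinase complex mTORC1 rose at both doses. SESN2 (chromosome 1, 28259518 to 28282491) encodes sestrin 2, a leucine sensor that acts through the GATOR complexes. It had 27.05, 23.8 and 28.9 CPM in vehicle, 63.4, 109 and 79.9 CPM at 25 µM, and 109.7, 91.9 and 145 CPM at 50 µM, so that vehicle lay below both doses while the doses overlapped. The log2 changes were 1.68 (SE 0.28, adjusted p = 0.00197 by edgeR) and 2.14 (SE 0.28, adjusted p = 1.39e-05). DDIT4 (chromosome 10, 72273924 to 72276036) encodes REDD1, which acts through the TSC complex. It had 21.2, 17.7 and 23.0 CPM in vehicle, 51.1, 46.9 and 56.6 CPM at 25 µM, and 42.4, 42.2 and 48.4 CPM at 50 µM. Vehicle was again the lowest group, and the 50 µM libraries were no higher than those at 25 µM. Its log2 changes were 1.32 (SE 0.20, adjusted p = 8.54e-04 by edgeR) and 1.12 (SE 0.21, adjusted p = 6.89e-04). The 50 µM call was lost with libraries thinned to equal depth, where the log2 change was 0.72 (adjusted p = 0.117).

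**Figure D2:**
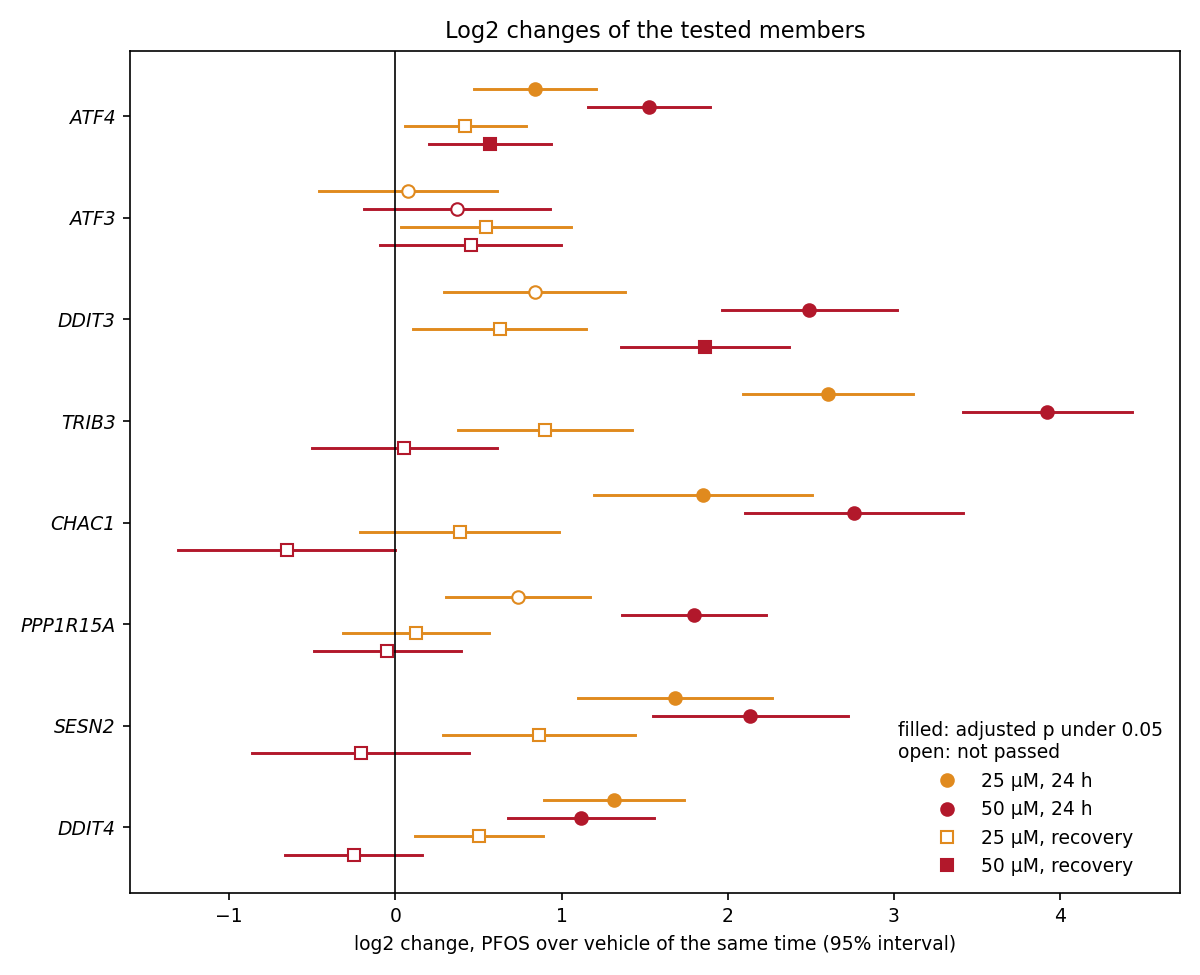
Log2 change (PFOS over vehicle of the same time, x axis) of the 8 tested genes with 95% intervals, for both doses at 24 h (circles) and after recovery (squares); filled symbols passed adjusted p 0.05. At 24 h all filled points lie right of 0, up to 3.92 for TRIB3 at 50 µM, and of the 50 µM recovery points DDIT3 (1.86) and ATF4 (0.57) are filled.

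The dose step separated the genes. At 24 h, 50 µM exceeded 25 µM for 4 of 8 tested genes and 0 were lower, against 3.79% of all genes called higher and 3.62% lower. The log2 differences were 1.65 for DDIT3 (SE 0.24, adjusted p = 1.67e-04 by edgeR), 1.32 for TRIB3 (SE 0.23, adjusted p = 0.00113), 1.06 for PPP1R15A (SE 0.21, adjusted p = 0.00268) and 0.69 for ATF4 (SE 0.17, adjusted p = 0.0163). The ATF4 call was lost without any of the 25 µM libraries or without 50 µM library 1 (adjusted p 0.0502 to 0.0908), and with thinned libraries (0.0772). CHAC1 differed by 0.91 with all 50 µM libraries higher, but did not pass in edgeR (adjusted p = 0.0557) and did in DESeq2 (adjusted p = 0.0406), in the fit of the compared libraries alone (6.14e-05), without the 50 µM recovery group (0.00523) and with no filter on low counts (0.00113). SESN2 differed by 0.45 (95% interval -0.09 to 0.99), ATF3 by 0.30 (-0.26 to 0.85) and DDIT4 by -0.20 (-0.60 to 0.21). For DDIT4 the interval excludes a further rise of more than 0.21 on the log2 scale.

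After 24 h without PFOS, 0 of the 8 genes passed the test in the 25 µM recovery group, nor did any other gene: 0% of the 9847 tested genes were called higher and 0% lower by edgeR. DESeq2 also called 0 of the 8, and 6 of the 8 had an unadjusted p under 0.05, as did 7.04% of all genes. In the same 6 genes the 3 libraries of 25 µM recovery all lay above the 3 of vehicle recovery, where 6.89% of all genes did. The median log2 change of the 8 was 0.52, beside a median within 0.01 of 0 over all genes. TRIB3 had 121, 152 and 96.2 CPM at 25 µM recovery, against 66.6, 52.9 and 82.4 CPM in vehicle recovery (log2 change 0.90, SE 0.25, adjusted p = 0.523 by edgeR). SESN2 had 77.1, 71.2 and 63.7 CPM at 25 µM recovery, against 39.1, 32.5 and 45.3 CPM in vehicle recovery (log2 change 0.87, SE 0.28, adjusted p = 0.539). In both genes every treated library was above every vehicle library. The log2 changes were 0.63 for DDIT3, 0.55 for ATF3, 0.50 for DDIT4 and 0.42 for ATF4, all without overlap. CHAC1 (0.39) and PPP1R15A (0.13) overlapped. Fitted without the 50 µM recovery group, whose spread enters the shared estimate, TRIB3 was called at 25 µM recovery (log2 change 0.94, adjusted p = 0.0252).

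In the 50 µM recovery group the genes no longer moved together. DDIT3 remained 3.64-fold above vehicle recovery and ATF4 1.49-fold, and the other 6 did not pass the test. With edgeR's quasi-likelihood test, 2 of 8 were called higher and 0 lower, against 17.7% and 10.7% of all genes, so the count of calls was near the background. In 1 of the 8, DDIT3, the 3 libraries all lay above vehicle, where 17.2% of all genes did. The median log2 change of the 8 was 0.00, beside -0.05 over all genes. DDIT3 had 88.4, 235 and 154 CPM at 50 µM recovery, against 36.8, 51.6 and 41.7 CPM in vehicle recovery. Its 3 treated libraries spread widely, but the lowest was above the highest vehicle library. The log2 change was 1.86 (SE 0.24, adjusted p = 2.72e-05). Without library 2 it was 1.44 (adjusted p = 2.05e-05). Among the 981 genes in the shortest of 10 equal groups by gene span, to which DDIT3, ATF4, CHAC1, PPP1R15A and DDIT4 belong, the median log2 change in this comparison was 0.63, below the change of DDIT3 and above those of the other four. Shorter genes stood higher in general there (Spearman rho -0.31 between span and log2 change across 9806 genes, which are not independent replicates); the part of gene span in these results was not tested.

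ATF4 had 110.4, 180.4 and 144 CPM at 50 µM recovery, against 84.3, 112 and 95.2 CPM in vehicle recovery. Library 1 lay inside the vehicle range and library 2 was highest, and the log2 change of 0.57 (SE 0.18, adjusted p = 0.0191 by edgeR) did not exceed the median of genes of like span. The call was lost without 50 µM recovery library 2 (log2 change 0.36, adjusted p = 0.160), without vehicle recovery library 1 (0.50, 0.0721) or 3 (0.55, 0.0532), in the fit of the compared libraries alone (0.62, 0.155), with thinned libraries (0.52, 0.0609) and with no filter on low counts (0.52, 0.0558).

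The genes that did not pass were the 5 effectors and ATF3. TRIB3 had 90.7, 35.5 and 86.1 CPM at 50 µM recovery, against 66.6, 52.9 and 82.4 CPM in vehicle recovery, with library 2 lowest and the other two just above the vehicle range. Its log2 change was 0.05 (95% interval -0.50 to 0.61), which excludes the 3.92 seen at 24 h. Without library 2 it was 0.41 and did not pass. CHAC1 had 68.6, 25.5 and 66.7 CPM at 50 µM recovery, against 72.8, 118 and 52.6 CPM in vehicle recovery. All 3 lay below the vehicle mean, library 2 by far, and the log2 change of -0.65 (SE 0.31, adjusted p = 0.123 by edgeR) did not pass. It passed as lower without vehicle recovery library 3 (-0.90, adjusted p = 0.0435), without 50 µM recovery library 1 (-0.93, adjusted p = 0.0339) or with no filter on low counts (-0.70, adjusted p = 0.0141). Without 50 µM recovery library 2 it was -0.30 (adjusted p = 0.516).

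PPP1R15A had 272, 120.3 and 276 CPM at 50 µM recovery, against 271, 213 and 204 CPM in vehicle recovery (log2 change -0.05, 95% interval -0.49 to 0.40). SESN2 had 51.2, 14.6 and 37.5 CPM at 50 µM recovery, against 39.1, 32.5 and 45.3 CPM in vehicle recovery (log2 change -0.21, -0.86 to 0.44). In both, library 2 was the lowest of the 6 and the groups overlapped. DDIT4 had 44.2, 40.1 and 66.7 CPM at 50 µM recovery, against 55.2, 55.6 and 65.9 CPM in vehicle recovery (log2 change -0.25, -0.66 to 0.16). ATF3 had 16.3, 22.8 and 33.3 CPM at 50 µM recovery, against 16.1, 17.3 and 18.3 CPM in vehicle recovery (log2 change 0.45, -0.09 to 1.00). Both overlapped vehicle, ATF3 only through library 1, and DDIT4 lay below the vehicle range in libraries 1 and 2. Without library 2 the log2 changes were 0.27 for PPP1R15A, 0.21 for SESN2, -0.10 for DDIT4 and 0.48 for ATF3, and none of the 4 passed. The plot of recovery libraries shows that library 2 was the highest of the 3 for ATF4 and DDIT3 and the lowest for TRIB3, CHAC1, PPP1R15A, SESN2 and DDIT4. Library 2 also had the highest share of ribosomal protein counts (7.58%, against 2.94% in library 1 and 5.03% in library 3). Libraries 1 and 3 did not follow that share in PPP1R15A and DDIT4, which were highest in library 3. The part of the share in these values was not tested.

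**Figure D3:**
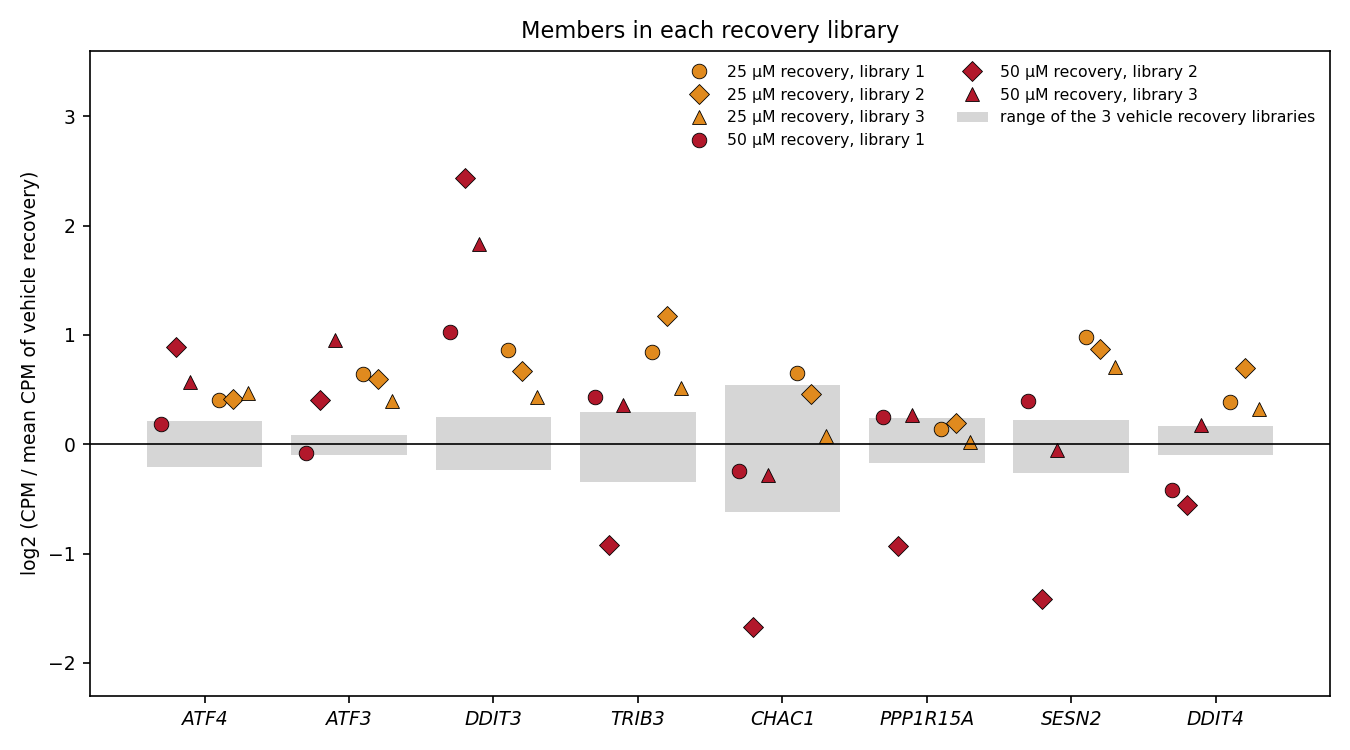
CPM of the 8 tested genes in each recovery library relative to the mean of the vehicle recovery libraries (y axis, log2), for 50 µM (red) and 25 µM (orange), with a symbol for each library; grey boxes span the 3 vehicle libraries. The 25 µM points sit above 0 throughout, while 50 µM library 2 is above the box for DDIT3 and ATF4 and below it for TRIB3, CHAC1, PPP1R15A, SESN2 and DDIT4.

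Set against 25 µM recovery, 50 µM recovery was higher for DDIT3 and lower for TRIB3, CHAC1, SESN2 and DDIT4. That is 1 of 8 called higher and 4 lower by edgeR, against 14.7% and 7.38% of all genes. The log2 differences were 1.23 for DDIT3 (SE 0.24, adjusted p = 0.00155), -0.85 for TRIB3 (SE 0.27, adjusted p = 0.0273), -1.04 for CHAC1 (SE 0.32, adjusted p = 0.0233), -1.07 for SESN2 (SE 0.31, adjusted p = 0.0177) and -0.75 for DDIT4 (SE 0.20, adjusted p = 0.0104). The groups did not overlap in any of the 5. Of all tested genes, 15.9% had all 3 libraries of 50 µM recovery above those of 25 µM recovery, and 12.9% had them below. Without 50 µM recovery library 2, DDIT3 alone passed (0.82, adjusted p = 0.0127), and the differences were -0.52 for TRIB3, -0.67 for CHAC1, -0.65 for SESN2 and -0.62 for DDIT4. The 4 lower calls were also lost without 25 µM recovery library 2, that of CHAC1 also without 25 µM recovery library 1 (-0.94, adjusted p = 0.0657), and 0 of the 8 passed in a fit of the 6 compared libraries alone.

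The change of the PFOS effect between 24 h and recovery was tested as a difference of differences. At 50 µM, the effect after recovery was smaller than at 24 h for 6 of 8 genes and larger for 0, against 7.42% and 11.6% of all genes. The log2 differences were -3.87 for TRIB3 (SE 0.36, adjusted p = 1.41e-06 by edgeR), -3.41 for CHAC1 (SE 0.44, adjusted p = 4.60e-05), -2.34 for SESN2 (SE 0.42, adjusted p = 0.00122), -1.85 for PPP1R15A (SE 0.30, adjusted p = 4.97e-04), -1.37 for DDIT4 (SE 0.29, adjusted p = 0.00387) and -0.96 for ATF4 (SE 0.25, adjusted p = 0.0121). DDIT3 did not pass (-0.63, SE 0.35, adjusted p = 0.216) with its 3 recovery libraries, and passed without 50 µM recovery library 2 (-1.06, adjusted p = 0.0131). ATF3 differed by 0.08 (95% interval -0.70 to 0.86). At 25 µM, 0 of 8 passed in either direction by edgeR, against 0% of all genes called larger and 0.0203% smaller. There, 3 of the 8 had an unadjusted p under 0.05, as did 4.65% of all genes, led by TRIB3 (-1.70, SE 0.35, adjusted p = 0.0986), which DESeq2 called (-1.71, adjusted p = 0.00165).

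Vehicle cells themselves shifted with the additional day, which bears on every recovery comparison. CHAC1 had 72.8, 118 and 52.6 CPM in vehicle recovery, against 32.9, 16.6 and 23.0 CPM in vehicle at 24 h. DDIT4 had 55.2, 55.6 and 65.9 CPM in vehicle recovery, against 21.2, 17.7 and 23.0 CPM in vehicle at 24 h. Neither gene overlapped between the times, and vehicle recovery DDIT4 was above every 24 h library at 50 µM. ATF4, DDIT3 and SESN2 did not overlap either. In these 5 of the 8 genes all 3 vehicle recovery libraries lay above the 3 at 24 h, where 8.76% of all genes did. The log2 changes were 1.86 for CHAC1 (SE 0.31, adjusted p = 0.00479 by edgeR) and 1.52 for DDIT4 (SE 0.20, adjusted p = 9.63e-04), and DDIT4 had rank 2 of 9847 genes by p. These were 2 of 8 called higher and 0 lower, against 0.335% and 0.64% of all genes. The CHAC1 call was lost without vehicle 24 h library 2 (1.63, adjusted p = 0.0971) or vehicle recovery library 2 (1.45, adjusted p = 0.0780). ATF4 (0.59, adjusted p = 0.136) and DDIT3 (0.74, adjusted p = 0.207) did not pass, and both did when the 50 µM recovery group was left out of the fit. Group and day cannot be told apart in this contrast.

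Close relatives of the genes mostly did not follow them. Of 12 relatives listed, 5 were tested. CEBPG, a C/EBP protein that pairs with ATF4, averaged 53.8 ± 4.72 CPM in vehicle, 93.6 ± 11.4 CPM at 25 µM and 99.1 ± 9.01 CPM at 50 µM at 24 h (SD, n = 3 each). It rose at both doses (log2 change 0.80, adjusted p = 0.00757 by edgeR, and 0.87, adjusted p = 4.20e-04); the 25 µM call was lost without vehicle library 2 (0.76, adjusted p = 0.0737) or 25 µM library 2 (0.68, adjusted p = 0.0944). CHAC2, which also degrades glutathione, fell at 50 µM (log2 change -1.32, SE 0.39, adjusted p = 0.0171), and this call was lost without vehicle library 2 or 3 or 50 µM library 1 or 3 (-0.99 to -1.25). SESN1, TRIB1 and PPP1R15B, the constitutive counterpart of PPP1R15A, had log2 changes of 0.26, -0.32 and -0.17 at 50 µM and did not pass at either dose. At 50 µM recovery CEBPG had a log2 change of -0.55 (adjusted p = 0.0191), a call lost without vehicle recovery library 2 or 50 µM recovery library 3.

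Of 31 tested genes outside the 10 that are reported as targets of ATF4, 19 were called higher at 25 µM and 20 at 50 µM after 24 h, with 0 lower, and all 31 changes were above 0 at both doses. Their median log2 change was 0.85 at 25 µM and 1.15 at 50 µM. Of all genes, 0.782% were called higher at 25 µM and 9.18% at 50 µM. At 50 µM, ALDH1L2, a mitochondrial folate enzyme, changed by 3.06 (SE 0.23), ASNS, asparagine synthetase, by 2.70 (SE 0.20), STC2, a secreted glycoprotein, by 2.10 (SE 0.14), SLC3A2, an amino acid transporter subunit, by 1.70 (SE 0.14) and GARS, a tRNA synthetase, by 1.42 (SE 0.12). After 25 µM recovery 0 of the 31 passed in edgeR and 1 in DESeq2, with a median of 0.30. After 50 µM recovery 1 was higher and 10 lower, with a median of -0.41, where 17.7% of all genes were higher and 10.7% lower. That count of lower calls was 5 with thinned libraries, 3 without 50 µM recovery library 2, 5 without 50 µM recovery library 3 or vehicle recovery library 1 or 3, and 0 in a fit of the 6 compared libraries alone. Of the 5 genes named, STC2 was called lower there (-0.56, adjusted p = 0.00873 by edgeR), a call lost without 50 µM recovery library 2 (-0.38, adjusted p = 0.0562). ALDH1L2 (-0.08), ASNS (-0.53) and SLC3A2 (0.05) did not pass there.

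Genes reported as CHOP targets numbered 6 tested. At 25 µM 1 was higher, the tRNA synthetase gene CARS (0.80), and at 50 µM 5 were higher and 1 lower. Of all genes, 0.782% were higher at 25 µM, and 9.18% were higher and 9.59% lower at 50 µM. WARS, another tRNA synthetase gene, changed by 1.75 (SE 0.20) at 50 µM, TNFRSF10B, the death receptor DR5, by 0.95 (SE 0.18) and CARS by 0.76 (SE 0.15). BCL2L11, which encodes the pro-apoptotic protein BIM, changed by 1.46 (SE 0.50), and ERO1L, an oxidase of the endoplasmic reticulum, was the lower one (-0.83, SE 0.27). The 5 calls were 3 without any 1 vehicle library, or 50 µM library 1 or 3, and the lower call was lost without vehicle library 2 or 3 or 50 µM library 2 or 3; the CARS call at 25 µM was lost without 25 µM library 2 (0.76, adjusted p = 0.0598), and leaving out vehicle library 1 made it 2 calls, DESeq2 2 and the fit of the compared libraries alone 4. After 50 µM recovery 1 was higher and 1 lower, against 17.7% and 10.7% of all genes. The higher one was not among the genes named here, and the count of 1 higher held under all 13 alternatives. The lower one was CARS (-0.54), a call lost without 50 µM recovery library 2 (-0.32, adjusted p = 0.0859 by edgeR).

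Upstream of ATF4 stand the eIF2 kinases, eIF2 and eIF2B. Of 19 such genes tested, 0 passed at 25 µM by edgeR or DESeq2, and 2 were higher and 1 lower at 50 µM, where 9.18% of all genes were higher and 9.59% lower. The lower one was EIF2AK2, the double-stranded RNA kinase PKR (-0.79, SE 0.19, adjusted p = 0.00462). The 2 higher ones, EIF2B5 (0.49, adjusted p = 0.0493) and EIF2S3 (0.44, adjusted p = 0.0498), were near the threshold, and 0 or 1 of the list was called higher without any 1 of the 6 libraries compared. Without vehicle library 1, 2 were lower. In the fit of the compared libraries alone 6 were higher and 3 lower, and without the 50 µM recovery group 5 and 3.

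ATF6 and XBP1 lead the other arms of the unfolded protein response. Of 20 tested genes of these arms, 2 were higher at 25 µM, HSPA5 (0.81) and HERPUD1 (0.81), and 12 at 50 µM, with 0 lower. Of all genes, 0.782% were higher at 25 µM and 9.18% at 50 µM. The 2 at 25 µM were 6 in the fit of the compared libraries alone and 5 without the 50 µM recovery group. At 50 µM the chaperone gene HSPA5, which encodes BiP, changed by 1.78 (SE 0.11), DNAJB9 by 2.23 (SE 0.22), HERPUD1 by 1.93 (SE 0.14), SDF2L1 by 1.73 (SE 0.24) and SYVN1, a ubiquitin ligase of the endoplasmic reticulum, by 1.65 (SE 0.23). After 50 µM recovery 5 were higher and 2 lower, against 17.7% and 10.7% of all genes. SDF2L1 (1.24) and DNAJB9 (0.90) were among the higher ones. The 5 were 3 without 50 µM recovery library 2, and the 2 were 0 without vehicle recovery library 1 and 4 without 50 µM recovery library 1. HSPA5 was at 0.03 there and did not pass.

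Among 24 other bZIP transcription factors tested, 0 passed at 25 µM by edgeR or DESeq2 (2 in the fit of the compared libraries alone) and 7 were higher at 50 µM, 4 without vehicle library 3 and 3 with thinned libraries. At 50 µM 9.18% of all genes were higher. The AP-1 subunit gene FOSL1 changed by 1.35 (SE 0.15), CREM by 1.497 (SE 0.33) and CREB3, an endoplasmic reticulum-bound factor, by 0.59 (SE 0.13). MAFF (1.26, SE 0.34) and CREBZF (0.79, SE 0.23) were called too, and both were lost without vehicle library 2; CREBZF was also lost without vehicle library 3 or 50 µM library 1. Of 24 mTORC1 pathway genes tested, on which SESN2 and DDIT4 act, 1 was higher at 25 µM, where 0.782% of all genes were. At 50 µM 3 were higher and 1 lower, against 9.18% and 9.59% of all genes. In the fit of the compared libraries alone the 50 µM counts were 5 and 2. EIF4EBP1, a translation repressor that mTORC1 inactivates, changed by 0.97 at 25 µM, a call lost without any 1 of the 6 libraries compared (adjusted p up to 0.247), and by 1.83 (SE 0.23) at 50 µM. At 50 µM SEC13 changed by 0.77 (SE 0.14), NPRL2 of the GATOR complex by 1.16 (SE 0.22) and DEPTOR, an mTOR inhibitor, by -1.47 (SE 0.33). Of 12 glutathione genes tested, on whose substrate CHAC1 acts, SLC7A11, the cystine transporter, was called at 25 µM (2.12, SE 0.34) and 50 µM (2.90, SE 0.34). At 50 µM 2 were lower, CHAC2 and the glutathione reductase gene GSR (-0.85), and 0 or 1 was without any 1 of the 6 libraries. After 50 µM recovery 6 of the 12 were higher and 0 lower, with a median of 0.88, where 17.7% of all genes were higher and 10.7% lower. In the same comparison the eIF2 list had 2 higher and 2 lower calls, the bZIP list 2 and 2, and the mTORC1 list 3 and 3. Leaving out any 1 of the 6 libraries compared moved at least 1 of these counts by over 1.5 times, within 0 to 7 calls. Some genes are on more than 1 list, so the counts of the lists are not separate results. EIF4EBP1, SLC7A11 and WARS are also among the ATF4 targets, and CHAC2 is among both the relatives and the glutathione genes. The plot of list counts shows all 9 lists, the tested genes of the 10 included.

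**Figure D4:**
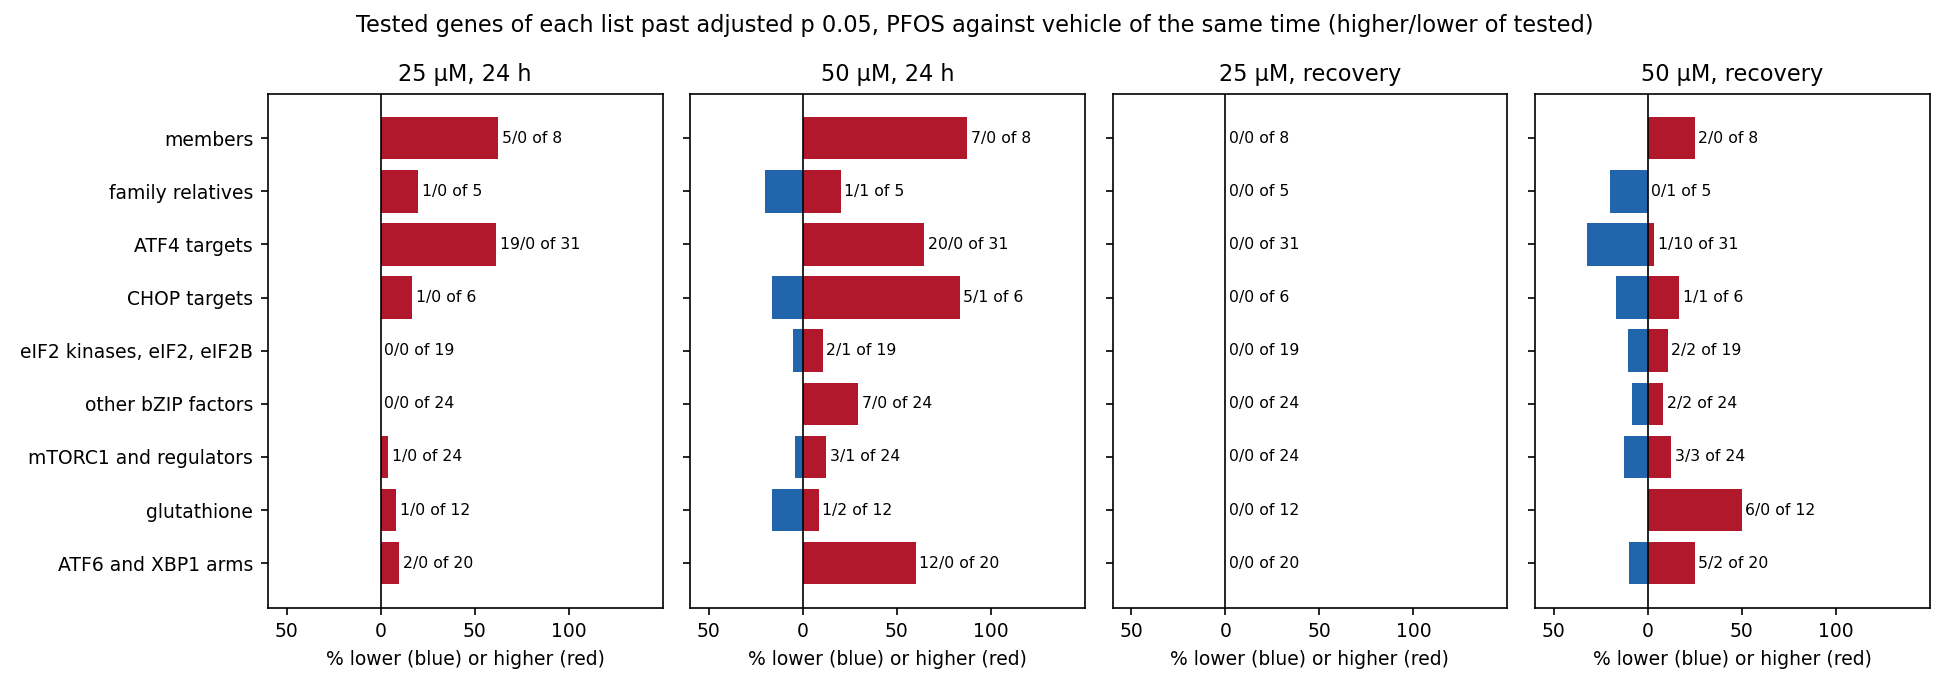
Share of the tested genes of each list called higher (red, right) or lower (blue, left) at adjusted p 0.05 in the 4 comparisons of PFOS with vehicle of the same time, with the counts printed as higher/lower of tested. Higher calls at 25 and 50 µM after 24 h were 5 and 7 of 8 for the 10 genes and 19 and 20 of 31 for ATF4 targets. They were 2 and 12 of 20 for the ATF6 and XBP1 arms and 1 and 5 of 6 for CHOP targets. No list has a call at 25 µM recovery, and ATF4 targets turn to 1 higher and 10 lower at 50 µM recovery.

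Likeness of pattern was measured over the 18 libraries as the root mean square (RMS) difference between profiles of log2 CPM, each centred on its own mean. Nearest to ATF4 were SMYD3 (0.24), DHRS7B (0.24) and EIF4EBP1 (0.26), where ATF4's own RMS departure from its mean was 0.50. DDIT3, with an RMS departure of 0.94, was nearest to EIF4EBP1 (0.37), BEX2 (0.38) and TMEM208 (0.39). These 3 had log2 changes at 50 µM recovery of 1.13, 1.78 and 1.93, beside 1.86 for DDIT3. TRIB3, with a departure of 1.48, was nearest to SLC6A9 (0.60), LOX (0.67) and CNIH3 (0.69), and CHAC1, with 0.93, to ALDH1L2 (0.48), PCK2 (0.50) and MOCOS (0.51). The genes nearest to CHAC1 had log2 changes of -0.08, -0.61 and -0.02 at 50 µM recovery. Those nearest to TRIB3 had -0.99, -0.54 and 1.58 there, and those nearest to ATF4 had 0.87, 0.65 and 1.13. EIF4EBP1 was shared by ATF4 and DDIT3. No other gene was among the 3 nearest to more than 1 of these genes, and TRIB3 and CHAC1 shared none. The libraries share depth and the RNA composition of their group, so likeness is a description.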

How the data were processed

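RNA-seq of 18 HMC3 libraries was analysed; the 18 H3K27ac CUT&Tag libraries were not analysed here. Per the labels' protocols, RNA was isolated with TRIzol and converted to paired-end libraries by a poly(A)-selected Smart-seq2 workflow, which amplifies cDNA by PCR. The authors deposited raw counts per gene symbol, 1 column per library and not normalized, per the file headers. Trimmomatic, STAR and DESeq2 with GRCh38 are named in the submitters' processing notes; for the versions, counting tool, annotation and strand setting, nothing is given in the sources used here.

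The 10 genes and the gene lists were chosen with earlier results of these data known. Counts were fitted with edgeR 4.0.16 (R 4.3.3): filterByExpr with a minimum count of 10 kept 9847 genes holding 99.2% of counts, libraries were TMM-scaled, and 1 quasi-likelihood fit over the 18 libraries gave each group its own mean and all groups a common spread. P-values are two-sided and Benjamini-Hochberg adjusted over all tested genes, and "called" means under 0.05. CPM use TMM-scaled library sizes. Log2 changes carry a standard error (SE) and a 95% interval from the fit. At these depths (582233 to 4346627 counts) 3 counts correspond to 0.670 to 5.03 CPM per library. No molecular identifiers were used, so floors cover counting error only. The fit was tested on simulated data.

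Named genes were the 10, up to 5 called genes per list with the lowest adjusted p at 50 µM and 24 h, all tested relatives, and the 3 nearest profiles of 4 of the genes. Alternatives were library totals, RLE scaling, no filter, DESeq2 1.42.0, a replicate block, a fit of the compared libraries only, a fit without the 50 µM recovery group, thinned counts and leaving out each library; those for the gene lists were added after seeing the data. Most same-numbered libraries did not deviate together, though 7 of 45 pairs had a correlation of deviations over 0.1 (highest 0.39). In the main fit the numbers were not taken as pairs. Between replicates, chi-square per degree of freedom was at least 1.29 (counting noise gives 1), so no library was merged with another. Promoter sequences and gene positions come from RefSeq on GRCh38.p14.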

Additional observations from a re-analysis of the deposited data

Results flagged for a closer look

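The effect of 50 µM PFOS differed between recovery and 24 h in 6 of the 8 tested genes, by a test of the difference itself (edgeR, adjusted p under 0.05). The log2 effect after recovery minus that at 24 h was -3.87 for TRIB3, -3.41 for CHAC1, -2.34 for SESN2, -1.85 for PPP1R15A, -1.37 for DDIT4 and -0.96 for ATF4. For CHAC1 and DDIT4, the level in vehicle was itself higher after recovery than at 24 h, by 1.86 and 1.52 on the log2 scale, and this enters their difference. Mean DDIT4 in 50 µM cells was 44.3 CPM at 24 h and 50.3 CPM after recovery, so its smaller effect did not come with a lower mean in treated cells. The vehicle changes of ATF4 (0.59), SESN2 (0.54), TRIB3 (0.26) and PPP1R15A (0.23) did not pass but enter their differences too. All 6 calls held when any 1 library was left out. The ATF4 call was lost in a fit of the compared libraries only (-0.95, adjusted p = 0.0508) and that of DDIT4 with thinned counts (-0.99, adjusted p = 0.0957). With 3 libraries a group, single libraries were not tested as outliers.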

How the results depend on the processing

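Of 1080 values of the tested genes under an alternative, 1001 kept their direction and side of the threshold, 36 kept their direction but no longer passed, 24 passed where they had not, and 19 changed sign, all of these from changes that had not passed. The cause was not tested. The number of the 8 genes called at 25 µM and 24 h was 5 and became 7 with no filter, in the fit of the compared libraries only and without the 50 µM recovery group. The number called at 25 µM recovery was 0 and became 1 with no filter and 1 without the 50 µM recovery group; for the difference of effects at 25 µM it was 0 and became 2 with no filter, 1 with DESeq2, 1 in the fit of the compared libraries only and 2 without the 50 µM recovery group. At 50 µM recovery it was 2 and became 1 in the fit of the compared libraries only and 1 with thinned counts. For 50 against 25 µM recovery it was 5 and became 0 in the fit of the compared libraries only, and for vehicle it was 2 and became 4 without the 50 µM recovery group.

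Leaving out 1 library gave 4 to 5 calls at 25 µM and 7 to 7 at 50 µM at 24 h, 0 to 0 at 25 µM recovery, 1 to 3 at 50 µM recovery, 3 to 4 for the dose step at 24 h, 1 to 5 for the dose step in recovery, 0 to 0 and 6 to 7 for the differences of effects at 25 and 50 µM, and 1 to 2 for vehicle. Sign changes on leaving out 1 library spanned, for ATF3, -0.11 to 0.34 at 25 µM and 24 h, -0.36 to 0.11 for the dose step in recovery and -0.18 to 0.29 for the difference of effects at 50 µM. At 50 µM recovery they spanned -0.20 to 0.41 for TRIB3, -0.66 to 0.21 for SESN2, -0.23 to 0.27 for PPP1R15A, -0.48 to 0.20 for TRIB1 and -0.45 to 0.30 for PPP1R15B. For the dose step in recovery ATF4 spanned -0.0486 to 0.313 and PPP1R15A -0.36 to 0.13; SESN1 at 50 µM and 24 h spanned -0.0144 to 0.531, and TRIB1 at 25 µM recovery -0.58 to 0.38. With thinned counts the sign turned for PPP1R15A at 50 µM recovery (0.0555), at 25 µM recovery (-0.0165) and for the dose step in recovery (0.0720), for ATF3 in the dose steps at 24 h (-0.0470) and recovery (0.17), for SESN1 at 25 µM and 24 h (-0.27), and for PPP1R15B at 50 µM and 24 h (0.0100) and at 50 µM recovery (0.0153). In the fit of the compared libraries only, PPP1R15A (0.00823) and PPP1R15B (0.0128) turned at 50 µM recovery.

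Of 45 same-numbered pairs of libraries, 7 had a correlation of deviations over 0.1 (range -0.34 to 0.39). With the replicate number as a block, 5, 7, 0 and 2 of the 8 genes were called in the comparisons with vehicle at 25 and 50 µM at 24 h and in recovery, and no call of the 8 changed. The call counts of the eIF2 list (0 higher) and the glutathione list (1 lower) at 50 µM and 24 h did. Every alternative was run for these values, except that the fit without the 50 µM recovery group gives none for comparisons with that group, and that TRIB1 and some list genes did not pass the filter in every setting. CEBPB and ATF5 were too shallow to test.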

Other observations

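The counts of DDIT3 and of its neighbours in the response can be set against each other within a library, where scaling drops out. DDIT3 had 0.974, 6.62 and 1.79 times the counts of TRIB3 in the 50 µM recovery libraries, against 0.552, 0.975 and 0.506 times in vehicle recovery. It had 0.186, 0.202 and 0.144 times the counts of TRIB3 at 50 µM and 24 h, against 0.658, 0.410 and 0.440 times in vehicle at 24 h. Relative to CHAC1 the ratio was 1.29, 9.21 and 2.31 at 50 µM recovery, against 0.505, 0.438 and 0.791 in vehicle recovery, without overlap. The log2 difference of the CHAC1 ratio was 2.43 (two-sided exact permutation p = 0.1, the smallest that 3 against 3 allows, 0.2 after adjustment over 8 such tests), and that of the TRIB3 ratio was 1.80 (p = 0.2 by the same exact test, adjusted 0.32). At 24 h the TRIB3 ratio moved the other way, by -1.80 at 25 µM and -1.49 at 50 µM (p = 0.1 each by the same exact test, adjusted 0.2). These ratios were chosen after the values had been seen, and library 2 of the 50 µM recovery group holds the highest ratio in both pairs.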
